A study of Mus musculus with 6 samples.

Results

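The genes described here encode the translation initiation factors (eIFs) and elongation factors (eEFs) of the cytosolic ribosome, measured in injured spinal motor neurons of the mouse. They were chosen by a rule on gene names, which was set with earlier results of these data known. The rule took every row of the count table whose name is built from Eif1 to Eif6 or from Eef1 or Eef2. It left out the eIF2 kinase genes and the Y-linked *Eif2s3y*. This gave 67 of 53858 genes, of which 46 were assigned to initiation and 10 to elongation. The other 11 were 6 methyltransferase genes that modify elongation factors, and 5 genes that share the name only or act elsewhere. Among these are *Eif4a3* of the exon junction complex and *Eif2c5*, which is annotated as a long noncoding RNA. Of the 67, 60 passed the filter on low counts and were tested. *Eif4ebp3*, *Eif4e1b*, *Eif3j2* and *Eef1akmt4* had 16 to 24 counts over all libraries and were not tested, and *Eif2c5*, *Eif4a3l1* and *Eif4a3l2* had 0 counts in all 6 libraries.

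Initiation assembles a ribosome at a start codon. eIF2 brings the initiator tRNA as a complex with GTP, eIF2B recharges eIF2 with GTP, eIF3 holds the small subunit together with its partners, eIF4E, eIF4G and eIF4A bind and unwind the capped mRNA, eIF1 and eIF1A guide the search for the start codon, and eIF5B and eIF6 act at the joining of the large subunit. In elongation eEF1A delivers each aminoacyl-tRNA, the eEF1B complex recharges eEF1A with GTP, eEF2 moves the ribosome along the mRNA and eIF5A helps it past slow peptide bonds. Injured axons are known to make proteins locally during regrowth, and the signals that act on eIF4E, eIF2 and eEF2 are known to set how much protein a neuron makes.

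Each library came from a tube of 10 to 15 picked motor neurons of WT mice, collected at Day 6 after sciatic nerve crush. In the 3 DiO-only pools (DiO+/DiI-) the cells carried the dye DiO, given proximally on day 0 to fill all injured motor neurons. In the 3 double-labelled pools (DiO+/DiI+) they also carried DiI, given at a distal site on day 2 to mark the neurons whose regrown axons arrived there first. All cells of both groups were therefore injured, and no uninjured neurons were among these samples. The groups are separated by the DiI label, which was meant to mark early arrival at the distal site. Arrival time itself is not among the values used here. Age, sex and strain are not given in the labels. Nothing in them ties a pool to an animal of its own, so the p-values reflect only how these pools scatter, which may be technical.

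Total counts ran from 2997714 to 6563403 per library. Genes with at least 1 count numbered 17229 to 22118 in DiO-only and 15657 to 16467 in double-labelled pools. All 6 motor neuron markers checked were detected, with *Slc18a3* of the vesicular acetylcholine transporter at 492 to 710 CPM (counts scaled to a fixed library total, with TMM factors) in DiO-only and 455 to 952 CPM in double-labelled pools. All 12 oligodendrocyte markers were higher in double-labelled pools, 9 of them without overlap. Of all 12954 tested genes 6651 were higher, and 5.86% were higher without overlap. The summed level of the oligodendrocyte markers was 287 to 587 CPM against 1460 to 4950 CPM. Of 10 astrocyte markers 9 were tested and 7 of these were higher, 6 without overlap, and the summed level was 296 to 944 against 609 to 816 CPM. Most of that sum was *S100b*, and the 9 other markers summed to 32.1 to 130 against 128 to 471 CPM. Of 8 microglia markers 4 were tested, all lower. The untested *C1qa*, *Cx3cr1*, *P2ry12* and *Tmem119* had higher means in double-labelled pools, where pool 3 was highest at 8.71 to 10.3 CPM. The summed level of microglia markers was 82.2 to 86.1 against 48.7 to 110 CPM. Interneuron markers summed to 9.35 to 115 against 2.56 to 23.6 CPM, and endothelial and pericyte markers to 2.19 to 30.9 against 1.46 to 7.24 CPM. Schwann and satellite cell markers summed to 701 to 817 against 466 to 708 CPM, mostly from *Pmp22*. The part of these markers and of the gene detection in the results that follow was not tested.

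Across the factors, levels were mostly somewhat lower in double-labelled pools, and no single gene passed the test. Every tested gene of eIF3 and of the eEF1B group was lower, while the eIF4 factors, the eIF4E inhibitors, eEF2 with its kinase and eIF5A had genes in both directions. Of 60 tested members 42 were lower and 18 higher in double-labelled pools. Their log2 fold changes had a median of -0.25, where 48.7% of all 12954 tested genes were lower and the median was 0.02. Among tested genes with a mean of at least 20 CPM, a limit set after the data were seen, 51.5% were lower, against 40 of 52 members. At an adjusted p under 0.05 in edgeR's quasi-likelihood test 0 members were called, where 0.0% of all tested genes were. DESeq2 and limma voom also called 0 members, where they called 0.588% and 0.0% of all genes. The count of members stayed at 0 under the replicate block (0.178% of all genes), with no filter on low counts (0.277%) and with DESeq2 without that filter (0.492%). At an unadjusted p under 0.05 in edgeR there was 1 lower member, *Eef1b2*, where 2.63% of all tested genes passed in that direction, and 0 higher members, where 3.18% did. The lowest adjusted p of a member was 0.795 in edgeR. In pools of cells, fewer neurons with a transcript and less of it per neuron cannot be told apart.

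**Figure D1:**
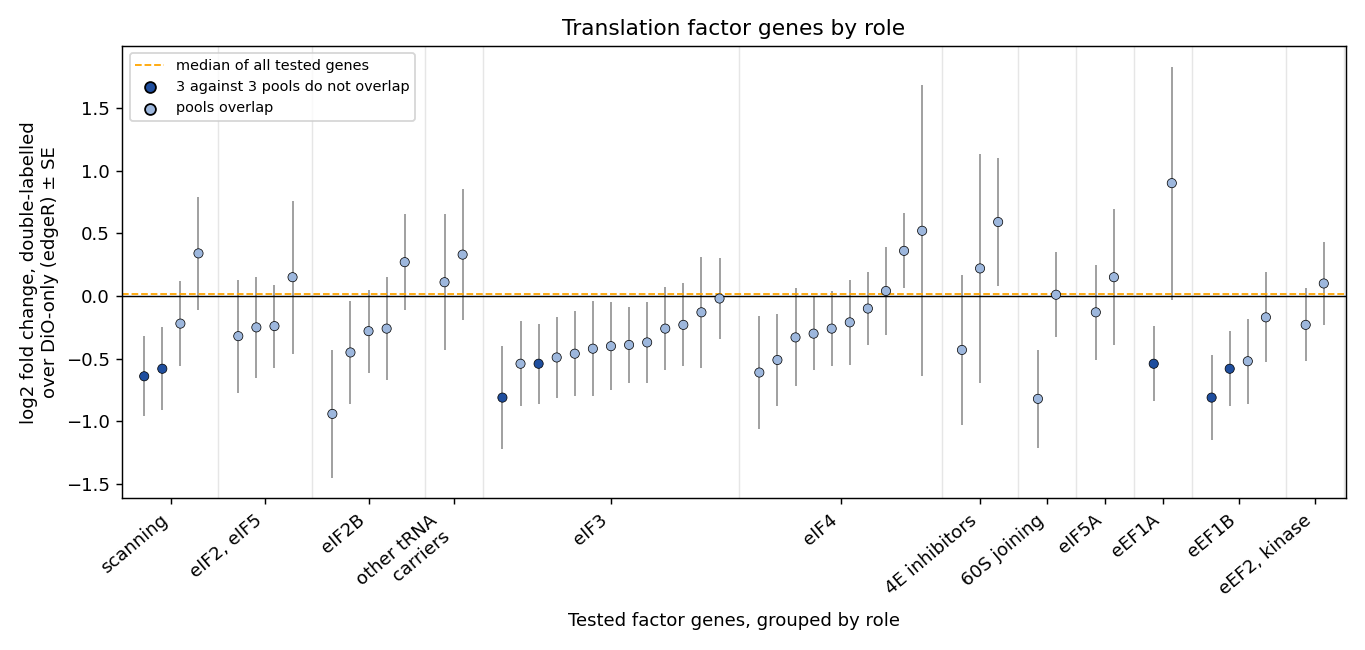
Log2 fold change of each tested initiation or elongation factor gene, double-labelled over DiO-only pools, with its standard error (edgeR, 3 against 3 pools), grouped by role on the x axis; dark points mark genes whose pools did not overlap. All 13 tested eIF3 genes and all 4 eEF1B genes lie below 0, and the 7 dark points are all below 0.

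The pools of both groups did not overlap for 7 members, all lower in double-labelled pools (11.7% of those tested), where 7.07% of all tested genes were apart in that direction. All 7 had a mean of at least 20 CPM, so they were 7 of 52 members at that level, where 7.49% of genes were apart and lower. None was apart in the higher direction, where 5.86% of all tested genes were. These 7 were *Eef1a1*, *Eef1b2*, *Eef1g*, *Eif3b*, *Eif3l*, *Eif1b* and *Eif1ax*. With libraries scaled to total counts only, 5 of them remained apart, and *Eef1a1* and *Eif3l* overlapped. Under that scaling *Eif3f* was also apart and lower, at 52.9 to 71.3 against 42.6 to 47.7 CPM, and *Eif4g3* was apart and higher, at 142 to 156 against 187 to 212 CPM. This made 6 lower and 1 higher member, where 5.54% of all tested genes were apart and lower and 5.7% apart and higher.

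Among the scanning factors, both members whose pools were apart were copies of the eIF1 and eIF1A genes. *Eif1b*, a close relative of eIF1 (ENSMUSG00000006941; mm10 chromosome 9, 120492232 to 120495330, plus strand), stood at 341, 555 and 321 CPM in DiO-only pools 1, 2 and 3 and at 238, 304 and 239 CPM in double-labelled pools 1, 2 and 3. Its highest double-labelled pool was thus below its lowest DiO-only pool, with a log2 fold change of -0.64 ± 0.32 (SE; edgeR adjusted p = 0.877). *Eif1ax*, the X-linked eIF1A gene (ENSMUSG00000067194; chromosome X, 159372178 to 159389928, plus strand), stood at 88.0, 102 and 87.5 CPM against 73.6, 67.7 and 44.6 CPM, with a log2 fold change of -0.58 ± 0.33 (edgeR adjusted p = 0.899). The other two genes of this role overlapped. *Eif1* stood at 161 ± 19.1 and 139 ± 54.7 CPM (SD, n = 3), and its double-labelled pool 3 was the highest of all 6 pools at 202 CPM. The autosomal *Eif1a* was nearly even in DiO-only pools, at 40.3, 39.4 and 40.2 CPM, and spread from 21.2 to 74.4 CPM in double-labelled pools, so that its log2 fold change of 0.34 became -0.05 without double-labelled pool 1.

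The eIF2 genes did not separate the groups. *Eif2s1*, of the alpha subunit that stress kinases phosphorylate, had a mean of 95.5 ± 25.7 CPM in the DiO-only and 76.6 ± 40.6 CPM in the double-labelled group (SD, n = 3). Double-labelled pool 2 was its lowest library, and without it the log2 fold change moved from -0.32 to 0.05. *Eif2s2*, of the beta subunit, stood at 93.9 ± 22.5 and 79.6 ± 16.3 CPM. *Eif2s3x*, of the gamma subunit that binds GTP and the tRNA, was low in every pool, with a highest double-labelled pool of 16.4 CPM and a lowest DiO-only pool of 8.08 CPM. It has a near-identical Y-linked copy, so its counts are uncertain. *Eif5*, whose product triggers GTP hydrolysis on eIF2, stood at 334 ± 92.2 and 282 ± 146 CPM, with double-labelled pool 1 the highest of all pools at 437 CPM and pool 3 the lowest at 146 CPM. In edgeR the adjusted p of these 4 genes ran from 0.978 to 0.987.

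Of the 5 subunits of eIF2B, the exchange factor that recharges eIF2, 4 were lower and *Eif2b1* was higher. *Eif2b3*, of the gamma subunit, had the lowest fold change of all members, -0.94 ± 0.51 on the log2 scale (edgeR adjusted p = 0.886). Its DiO-only pools stood at 50.6, 30.1 and 46.7 CPM and its double-labelled pools at 25.9, 8.05 and 32.0 CPM, so that double-labelled pool 3 lay above DiO-only pool 2. *Eif2b2* stood at 58.2 ± 22.1 and 42.5 ± 15.7 CPM (SD, n = 3). *Eif2b5*, of the catalytic epsilon subunit, stood at 84.6 ± 13.6 and 69.3 ± 16.4 CPM. The 2 other genes whose products can bring the initiator tRNA, *Eif2a* at 28.0 ± 9.18 and 30.3 ± 20.5 CPM and *Eif2d* at 19.4 ± 9.85 and 24.5 ± 8.22 CPM, were slightly higher in double-labelled pools, with overlap.

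eIF3, the largest initiation factor, binds the small ribosomal subunit and links it to eIF4G on the mRNA. All 13 of its tested genes were lower in double-labelled pools, with a median log2 fold change of -0.40 and a range from -0.81 to -0.02. The middle part of that range, -0.49 to -0.26 between the quartiles, was narrower than the -0.39 to 0.47 of all tested genes. Tested genes with a mean of at least 20 CPM, as all 13 had, ran from -0.32 to 0.31 between the quartiles, also a wider range. None of the 13 eIF3 genes passed the test, and their unadjusted p in edgeR started at 0.0701. Their summed level was 2030, 1920 and 1660 CPM in DiO-only pools and 1370, 1520 and 1420 CPM in double-labelled pools. The sums of the groups did not overlap with TMM factors, but they did with total-count scaling, at 1540 to 2140 against 1340 to 1610. All 3 double-labelled libraries contributed about equally to the lower level: the median eIF3 gene stood at -0.44, -0.41 and -0.37 on the log2 scale relative to the DiO-only mean, where the DiO-only pools ran from -0.19 to 0.13. The count of lower genes was 12 or 13 in each run without 1 library. The genes above 0 in some of these runs were *Eif3m* and *Eif3j1*, by at most 0.16.

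**Figure D2:**
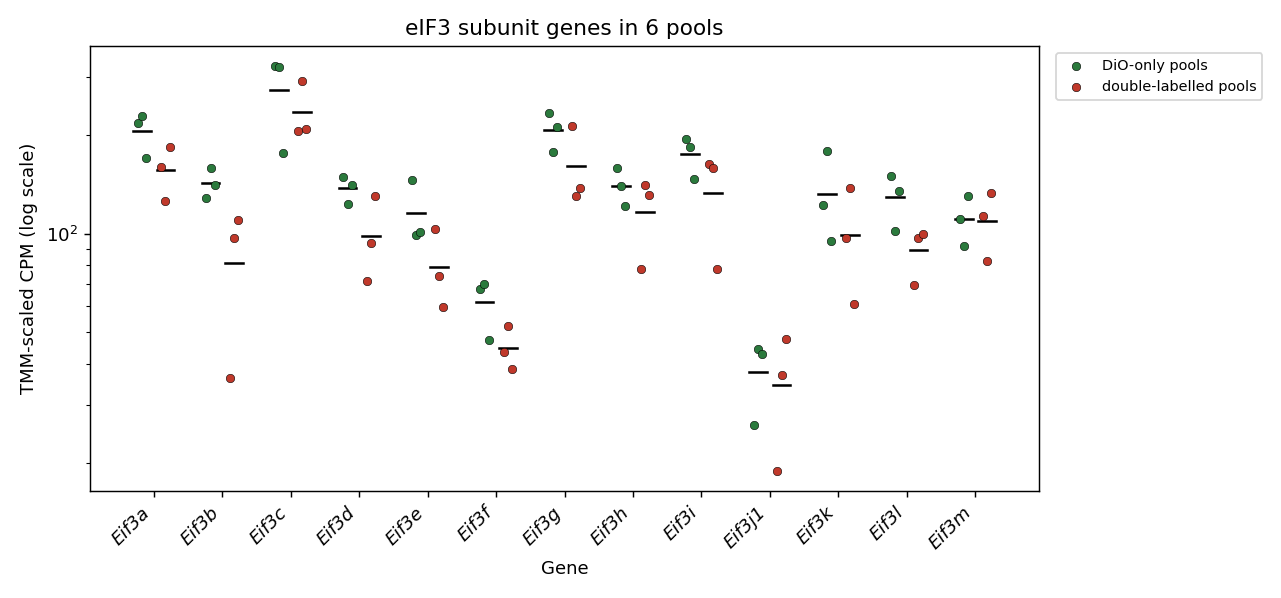
TMM-scaled CPM on a log axis of the 13 tested eIF3 subunit genes in each DiO-only (green) and double-labelled (red) pool, with the mean of each group as a bar. Every red bar is below its green bar, the pools are apart for Eif3b and Eif3l, and the bars of Eif3m nearly coincide at 111 and 110 CPM.

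*Eif3b*, of a core subunit that scaffolds the complex (ENSMUSG00000056076; chromosome 5, 140419328 to 140443360, plus strand), had the lowest fold change of the 13. It stood at 128, 158 and 141 CPM in DiO-only pools and at 36.2, 97.0 and 110 CPM in double-labelled pools, with a log2 fold change of -0.81 ± 0.41 (SE; edgeR adjusted p = 0.877). The groups did not overlap, and double-labelled pool 1 was far below the others. Without that pool the log2 fold change was -0.47 and that of *Eif3e*, at -0.79, was lower. *Eif3l* (ENSMUSG00000033047; chromosome 15, 79075179 to 79094405, plus strand) stood at 150, 102 and 135 CPM against 69.7, 96.6 and 100 CPM, a log2 fold change of -0.54 ± 0.32 (edgeR adjusted p = 0.918). Here the gap between the groups was small, since DiO-only pool 2 lay just above double-labelled pool 3. *Eif3e* stood at 146, 98.9 and 101 CPM against 103, 74.3 and 59.6 CPM, where double-labelled pool 1 lay just above DiO-only pools 2 and 3. *Eif3a*, of the subunit on which the complex is built, stood at 205 ± 30.9 and 156 ± 29.2 CPM (SD, n = 3), with overlap. *Eif3c* stood at 274 ± 85.3 and 235 ± 49.2 CPM, and its DiO-only pool 3 was the lowest of all 6 pools at 176 CPM. *Eif3d* shares 43.3% of its exon bases with the opposite-strand gene *Gm17638*, which had 2249 counts beside its 3782, so part of its counts may be uncertain. *Eif3j1* shares 19.0% of its exon bases with *Spg11* in the same way.

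The eIF4 factors recognise and unwind the cap end of the mRNA, and the pools of all 10 tested genes overlapped between the groups with TMM factors. Of 10 tested 7 were lower and 3 higher, and the median was -0.24 on the log2 scale. *Eif4e*, of the cap-binding protein, stood at 76.6 ± 20.9 and 66.0 ± 13.1 CPM (SD, n = 3), and its direction turned to 0.03 without DiO-only pool 2. *Eif4g1*, of the scaffold that bridges cap and ribosome, stood at 365, 388 and 322 CPM in DiO-only pools. In double-labelled pools it stood at 249, 265 and 355 CPM, so that only pool 3 lay within the DiO-only range. Its relative *Eif4g3* went the other way, at 156 ± 33.6 and 200 ± 28.9 CPM (log2 fold change 0.36 ± 0.30, SE; edgeR adjusted p = 0.966). Of the helicase genes, *Eif4a2* stood at 363 ± 49.6 in DiO-only and 303 ± 65.2 CPM in double-labelled pools. *Eif4a1*, at 146 ± 74.0 and 95.9 ± 44.7 CPM, was uneven within both groups, from 76.8 to 224 CPM and from 57.9 to 145 CPM. *Eif4b*, of a helper of the helicase, stood at 56.6 ± 17.4 and 39.9 ± 7.44 CPM, with overlap.

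The inhibitors of cap binding were not lower as a set. *Eif4ebp1*, of a 4E-BP that blocks eIF4E until it is phosphorylated by mTORC1, stood at 19.5, 37.7 and 17.7 CPM in DiO-only pools and at 45.8, 50.9 and 16.2 CPM in double-labelled pools. Its double-labelled pools 1 and 2 were thus the highest of all and pool 3 the lowest (log2 fold change 0.59 ± 0.51, SE; edgeR adjusted p = 0.970). *Eif4ebp2*, the relative known from brain, was low, at 4.81 to 12.7 and at 1.46 to 21.8 CPM, and its direction depended on the library left out. *Eif4enif1*, of a protein that carries eIF4E into the nucleus, stood at 19.5 ± 5.32 and 14.5 ± 9.04 CPM (SD, n = 3). *Eif4ebp3* had 20 counts, all of them in double-labelled pool 3.

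**Figure D3:**
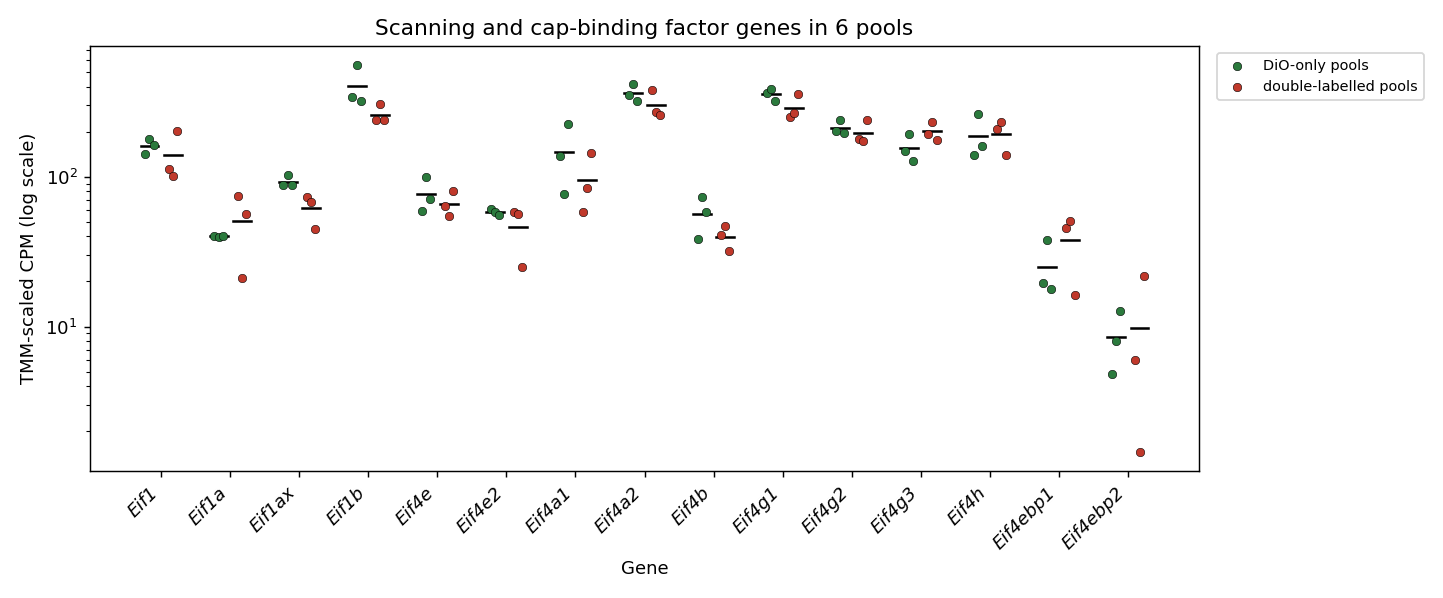
TMM-scaled CPM on a log axis of scanning and cap-binding genes in each DiO-only (green) and double-labelled (red) pool, with group means as bars. The pools are apart only for Eif1ax and Eif1b, and the double-labelled pools of Eif4ebp2 spread from 1.46 to 21.8 CPM.

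At the joining step, *Eif6* had a low fold change without a clean separation. Its product keeps free large subunits from binding small ones. It stood at 294, 174 and 186 CPM in DiO-only pools, with a mean of 218 ± 66.2 CPM, against a mean of 123 ± 56.9 CPM in double-labelled pools (SD, n = 3). Double-labelled pools 2 and 3 were below every DiO-only pool, while pool 1, at 186 CPM, lay above DiO-only pool 2. The log2 fold change was -0.82 ± 0.39 (SE), with an edgeR adjusted p of 0.870. *Eif5b*, of the GTPase that joins the subunits, did not separate the groups, at 118 ± 41.2 and 120 ± 21.4 CPM (SD, n = 3), and 16.8% of its exon bases are shared with the opposite-strand gene *Rev1*.

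Of the elongation factors, the 3 whose pools did not overlap were genes of eEF1A and its exchange complex. *Eef1b2*, of the exchange subunit that opens the nucleotide site of eEF1A (ENSMUSG00000025967; chromosome 1, 63176825 to 63180486, plus strand), stood at 209, 437 and 244 CPM in DiO-only pools. In double-labelled pools it stood at 163, 193 and 151 CPM. Every double-labelled pool was below every DiO-only pool, and DiO-only pool 2 was far above the rest. The log2 fold change was -0.81 ± 0.34 (SE), with an unadjusted p of 0.0370 and an adjusted p of 0.795 in edgeR. Without DiO-only pool 2, or without double-labelled pool 1, 2 or 3, *Eef1b2* was no longer under the unadjusted threshold, and its fold change stayed below 0 in every run (-1.02 to -0.42).

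*Eef1g*, of the gamma subunit that anchors the exchange complex (ENSMUSG00000071644; chromosome 19, 8967041 to 8978479, plus strand), stood at 448, 554 and 411 CPM against 306, 262 and 379 CPM, again without overlap (-0.58 ± 0.30 on the log2 scale, SE; edgeR adjusted p = 0.885). *Eef1a1*, of the tRNA carrier itself (ENSMUSG00000037742; chromosome 9, 78478449 to 78489151, minus strand), had levels of 294, 386 and 347 CPM against 222, 195 and 289 CPM (log2 fold change -0.54 ± 0.30, SE; edgeR adjusted p = 0.892). Its closest pools were DiO-only pool 1 and double-labelled pool 3, which changed places when libraries were scaled to total counts. eEF1A and several initiation factors are known for processed pseudogenes, so reads may be split or dropped between copies. *Eef1d*, of the delta subunit, was even in DiO-only pools at 129, 135 and 123 CPM and uneven in double-labelled pools at 59.4, 83.1 and 127 CPM, of which only pool 3 was inside the DiO-only range. *Eef1e1*, which is grouped with eEF1B here although its product sits with tRNA synthetases, stood at 40.9 ± 6.47 and 36.5 ± 4.90 CPM (SD, n = 3). The 4 genes of this group summed to 834, 1160 and 818 CPM in DiO-only and 568, 576 and 688 CPM in double-labelled pools. These sums did not overlap with total-count scaling either, at 879 to 928 against 525 to 782.

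**Figure D4:**
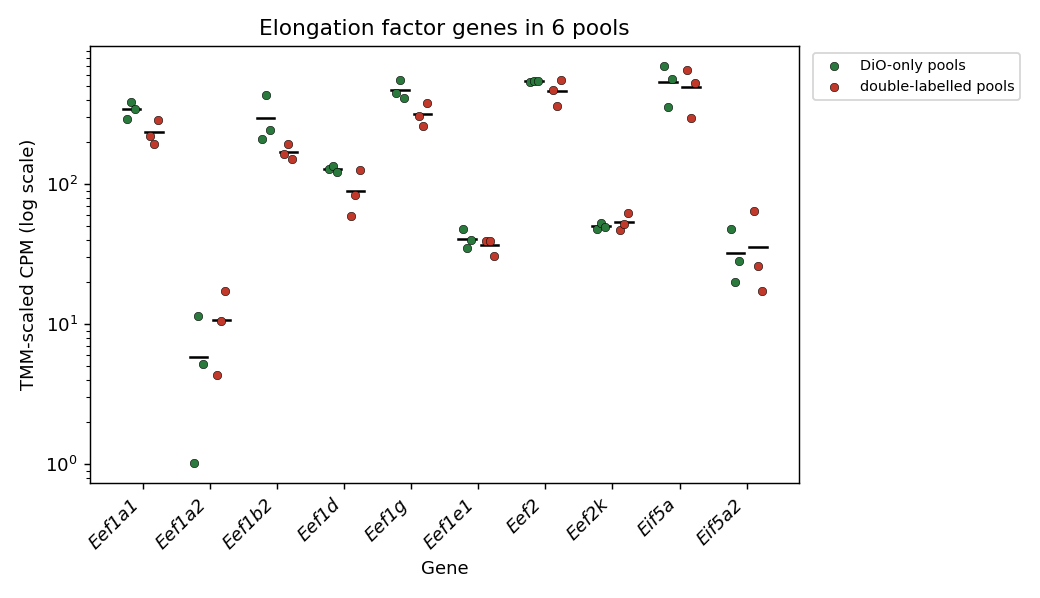
TMM-scaled CPM on a log axis of the 10 elongation factor genes in each DiO-only (green) and double-labelled (red) pool, with group means as bars. The pools are apart for Eef1a1, Eef1b2 and Eef1g, while those of Eef1a2, Eef1d, Eef1e1, Eef2, Eef2k, Eif5a and Eif5a2 overlap.

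The later steps of elongation showed no such difference. *Eef2*, of the translocase, was nearly constant in DiO-only pools at 537, 547 and 548 CPM. It stood at 471, 362 and 558 CPM in double-labelled pools, so that pool 3 was the highest of all (log2 fold change -0.23 ± 0.29, SE; edgeR adjusted p = 0.978). *Eef2k*, of the kinase that switches eEF2 off, stood at 50.3 ± 2.61 and 54.0 ± 7.89 CPM (SD, n = 3). *Eif5a* varied more within the groups than between them, at 701, 353 and 567 CPM against 657, 295 and 530 CPM. Its relative *Eif5a2* stood at 32.1 ± 14.4 and 35.7 ± 24.8 CPM.

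Many mRNAs of the translation apparatus begin with a 5′ terminal oligopyrimidine (TOP) tract, a C followed by C and T bases, through which mTORC1 and LARP1 are known to control them together. Of the members, *Eef1a1*, *Eef1b2*, *Eef1d*, *Eef1g*, *Eef2*, *Eif3e*, *Eif3f*, *Eif3h* and *Eif4b* were listed as known TOP mRNAs. All 9 were lower in double-labelled pools, where 48.7% of all tested genes were lower. All 9 had a mean of at least 20 CPM. At that level 51.5% of tested genes were lower, and 40 of 52 members, these 9 included. The log2 fold changes of the 9 had a median of -0.52 and a range from -0.81 to -0.23. The median was -0.58 to -0.40 over the alternatives and the count 9 of 9 in each. In 3 of the 9 the pools were apart, where 7.07% of all tested genes were apart and lower. At an unadjusted p under 0.05 there was 1 of them, *Eef1b2*, in edgeR and DESeq2, while limma voom had *Eef1a1* and *Eef1g* and not *Eef1b2*. After adjustment 0 were called by any of these tools. The list overlaps with the eEF1B and eIF3 genes above, so it is not a separate piece of evidence. It was drawn up with earlier results of these data known. *Eef1a2*, the other eEF1A gene, is not on it and was higher, with a log2 fold change of 0.90 ± 0.93 (SE, edgeR).

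Sequences around annotated start sites were searched for stretches of this kind. A stretch found there need not lie at the 5′ end of the mRNA, as a TOP tract does. RefSeq windows on GRCm38.p6 were found for 50 of the 67 members. They were searched on the transcribed strand, from 15 bases before to 50 bases after the annotated start, for a C followed by at least 6 bases that are each C or T. Capitals mark the longest such tract in the 30 bases printed, which run 5′ to 3′, and the last 2 lines show members without one.

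Eef1a1: tggctccgCCCTCTTCCCgagggtggggga
Eif3f: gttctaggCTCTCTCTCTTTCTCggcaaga
Eif3l: ttcttccgCTCTCTCCCacgggcttctgga
Eif4b: ccgcgccaCCCCCTCgcgctgctttacgaa
Eef1b2: ctgcagttccgccggaagtagccgaggcct
Eif3b: ggcgcgcggtgacttctgggagtcggaagc

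These 6 windows lie at chr9:78481708-78481737 (minus strand), chr7:108934403-108934432, chr15:79075219-79075248, chr15:102073775-102073804, chr1:63176821-63176850 and chr5:140419295-140419324 (all plus strand), in that order. The tract of *Eif3f* spans 15 bases and begins 4 bases before the annotated start, and that of *Eef1a1* begins 5 bases before it. Those of *Eif3l* and *Eif4b* begin 5 and 11 bases after it. None of the marked tracts printed here thus begins at the annotated start, and whether they are TOP tracts was not tested. A tract was present in 21 of the 50 members (42.0%), against 30.6% of all 27025 genes with such a window. Among tested members the median log2 fold change was -0.23 for 19 with a tract and -0.24 for 28 without. The search also takes stretches far from the annotated start, as in *Eif1*, where it begins 31 bases after it. Of 5 known TOP members with a window, 4 had a tract by this search. It therefore cannot decide whether a TOP tract goes with the fold change. *Eef1b2* and *Eif3b*, with the lowest fold changes among the members whose pools were apart, had none in this window.

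Set beside each other by library, the roles fell into those where the median gene of every double-labelled pool was below every DiO-only pool and those where pools mixed. The scanning factors stood at -0.13 to 0.15 in DiO-only pools and at -0.55 to -0.22 in double-labelled pools (median over genes of the log2 ratio to the DiO-only mean, with 1 CPM added). The eEF1B genes stood at -0.13 to 0.15 and at -0.74 to -0.35. eIF3 and the eIF4 factors were also apart, the latter by little, at -0.10 to 0.19 against -0.28 to -0.12. In the median of all tested genes the pools ran from -0.08 to 0.01 and from -0.11 to -0.04. The roles of eIF2, eIF2B, cap-binding inhibitors, 60S joining, eIF5A, eEF1A and eEF2 overlapped. So did the other initiator tRNA carriers, at -0.75 to 0.29 against -0.72 to 0.79. These medians used TMM factors. With total-count scaling the summed levels of the scanning and eEF1B genes were apart. Those of eIF3 overlapped, and so did those of the eIF4 factors, at 1450 to 1730 against 1300 to 1650.

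**Figure D5:**
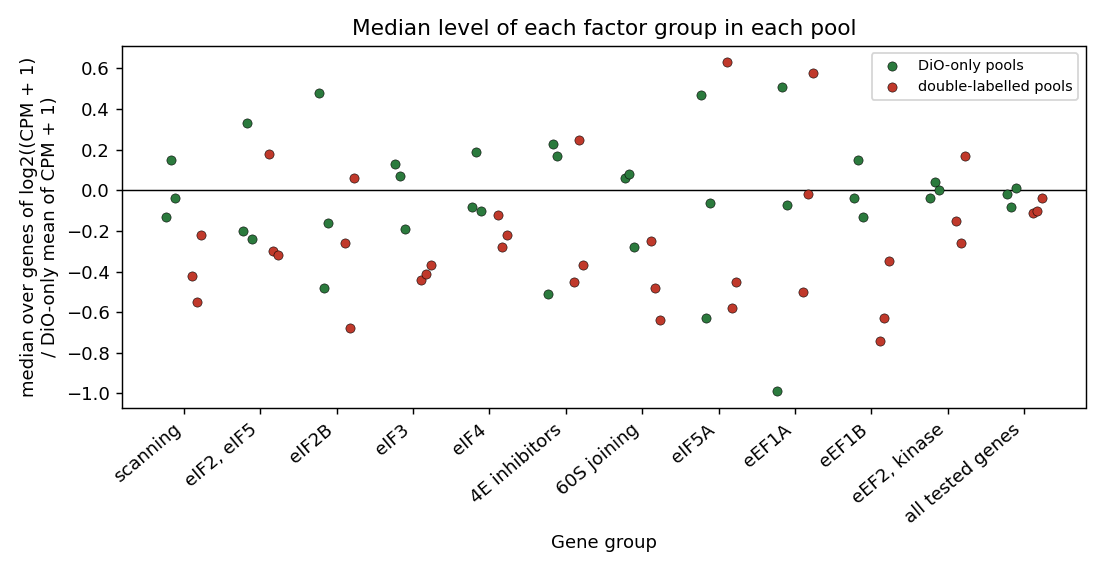
Median over the tested genes of each role of the log2 ratio of CPM + 1 to the DiO-only mean of CPM + 1, 1 point per pool. All tested genes are at the right for comparison, and the other initiator tRNA carriers are not shown. Red points lie below all green points for scanning, eIF3, eIF4 and eEF1B, and mix with them for eIF2, eIF2B, 4E inhibitors, 60S joining, eIF5A, eEF1A and eEF2.

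Levels of different genes can be compared only per length, here as CPM per kilobase of annotated exon sequence. On that scale *Eif1b* was the highest member in both groups, at 361 and 231 CPM per kilobase, followed by *Eif5a* at 227 and 208. *Eef1g*, *Eef2* and *Eef1a1* came next in both groups, at 181, 164 and 137 in DiO-only pools and at 121, 139 and 94.4 in double-labelled pools. The eIF4E gene *Eif4e* was far lower, at 12.7 and 11.0. *Eif2s3x* stood at 3.36 and 3.71 CPM per kilobase, below *Eif2s1* at 19.3 and 15.5 and *Eif2s2* at 13.9 and 11.8, with which it forms eIF2.

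Several factors exist as gene pairs, and the share of 1 copy in its pair was compared per exon length. eEF1A2 is known to replace eEF1A1 in mature neurons and muscle. In these pools *Eef1a2* (ENSMUSG00000016349; chromosome 2, 181147653 to 181157014, minus strand) made up little of the pair. Its share was 0.413, 3.40 and 1.74% in DiO-only pools and 2.28, 6.10 and 6.63% in double-labelled pools. The shares overlapped between the groups, and the counts behind *Eef1a2* were only 7 to 128 per library. *Eif4g3* made up 21.1, 24.7 and 20.6% of the *Eif4g1* and *Eif4g3* pair against 33.6, 36.7 and 24.7%, so that the closest pools of the groups met at 24.7%. *Eif1b* made up 81.9 ± 3.21 and 77.8 ± 8.14% of its pair with *Eif1*, *Eif4a2* 67.6 ± 13.8 and 71.9 ± 12.4% of its pair with *Eif4a1*, and *Eif5a2* 2.68 ± 0.424 and 3.30 ± 1.57% of its pair with *Eif5a*, all with overlap. The pairs other than eEF1A were chosen after the values had been seen.

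The methyltransferase genes and the genes that share only the name did not follow the factors. Of the 7 tested 3 were lower and 4 higher. *Eef1akmt1*, of an eEF1A lysine methyltransferase, stood at 38.5 ± 13.7 and 24.5 ± 12.2 CPM (SD, n = 3). *Eef1akmt2* stood at 5.18 ± 1.33 and 10.6 ± 11.8 CPM, where double-labelled pool 1 alone, at 24.2 CPM, was high. *Eef2kmt*, of an eEF2 lysine methyltransferase, stood at 16.3 ± 8.31 and 23.8 ± 6.25 CPM and shares 17.6% of its exon bases with the opposite-strand gene *Alg1*. *Eif1ad* stood at 35.5 ± 4.76 and 36.8 ± 11.9 CPM and shares 15.3% of its exon bases with the opposite-strand gene *Banf1*, and *Eif4a3* stood at 61.0 ± 21.7 and 56.6 ± 13.4 CPM.

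Genes that act on the factors were counted from separate lists. Of 8 genes of the eIF2 kinases and of the phosphatase that reverses them, 4 were lower and 4 higher, and 0 passed the unadjusted threshold in either direction, where 2.63% of all tested genes passed as lower and 3.18% as higher. *Ppp1ca* stood at 160 ± 57.1 and 119 ± 42.0 CPM (SD, n = 3) and *Eif2ak4*, of the kinase GCN2, at 15.8 ± 6.30 and 22.3 ± 13.8 CPM. Of 13 genes of mTORC1 and MNK signalling 9 were higher, where 6651 of all 12954 tested genes were. Of these 9, 2 were under the unadjusted threshold. The pools of 1 did not overlap, where 5.86% of all tested genes were apart and higher. *Rps6kb1*, of the S6 kinase, stood at 60.4, 37.1 and 39.2 CPM against 110, 51.2 and 103 CPM (edgeR adjusted p = 0.772). *Tsc2*, of an inhibitor of mTORC1, stood at 76.7, 70.8 and 77.8 CPM against 104, 122 and 151 CPM, without overlap (log2 fold change 0.74 ± 0.31, SE; edgeR adjusted p = 0.775). S6 kinase is an effector of mTORC1, so the 2 genes act on opposite sides of it, and neither passed the adjusted test.

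Of 5 tested genes of termination and ribosome rescue 3 were lower, 2 of them under the unadjusted threshold (2.63% of all tested genes as lower) and without overlap (7.07%). *Hbs1l*, of a factor that rescues stalled ribosomes, stood at 89.6, 74.2 and 84.7 CPM in DiO-only pools and at 33.3, 51.2 and 44.8 CPM in double-labelled pools (log2 fold change -0.94 ± 0.33, SE; edgeR adjusted p = 0.698). *Gspt1*, of the release factor eRF3, stood at 75.5 ± 7.67 and 43.0 ± 9.72 CPM (SD, n = 3; edgeR adjusted p = 0.778). *Dhps*, of the enzyme that begins the hypusine modification of eIF5A, stood at 65.7 ± 24.4 and 35.9 ± 12.4 CPM, and *Dohh*, which completes it, at 15.5 ± 6.62 and 18.6 ± 0.979 CPM, both with overlap. Of 10 poly(A)-binding and helicase partners 4 were lower and 6 higher, with *Paip1* at 12.5 ± 2.94 and 24.0 ± 13.2 CPM and *Gigyf2* at 45.1 ± 1.65 and 62.2 ± 9.34 CPM. *Gigyf2* was higher without overlap, where 5.86% of all tested genes were. Of 9 mitochondrial translation factors 4 were lower and 5 higher, with *Gfm1* at 196 ± 51.2 and 152 ± 14.2 CPM and *Mtrf1* at 8.60 ± 5.35 and 3.95 ± 5.14 CPM. In these lists too, 0 genes were called over all genes in edgeR.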

How the data were processed

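The authors deposited raw counts per Ensembl gene for 6 libraries. FastQC, HISAT2, HTSeq and mm10 are named per the submitters' processing notes. Versions, annotation, strand setting and the handling of reads with several locations: not given in the sources used here. Amplification took 20 PCR cycles per the labels' protocols, with no molecular identifiers named. Gene positions come from GENCODE M21 (GRCm38, mm10), which held 99.8% of them and all 67 members, and exon lengths are the union of its exons.

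In R 4.3.3, genes were filtered with edgeR's filterByExpr (12954 kept), scaled with TMM and compared with the robust quasi-likelihood test of edgeR 4.0.16, two-sided, 3 against 3, with Benjamini-Hochberg adjustment over all tested genes (common biological coefficient of variation 0.587). The standard error of a log2 fold change is its size over the root of F. The procedure was tested on simulated counts. Alternatives were other scalings and filters, DESeq2 1.42.0, voom in limma 3.58.1, a replicate block and leaving out each library. A value of 3 counts corresponds to 0.457 to 1.00 CPM with libraries scaled to total counts, without TMM factors.

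Members and lists were chosen with earlier results of these data known. Named were up to 3 members of smallest p per role, members whose groups did not overlap, a set of central factors whatever their test, and up to 2 genes of smallest p per pathway list.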

Additional observations from a re-analysis of the deposited data

How the results depend on the processing

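With 3 pools per group of 10 to 15 cells, precision is set by the spread between pools, and members under 20 CPM had the widest errors. The members called remained at 0 under every alternative, including thresholds of 0.01 and 0.1, while the calls over all genes went from 0 to 79 with no filter on low counts, 76 with DESeq2, 75 with DESeq2 without that filter (chosen after seeing the data) and 23 under the replicate block. The labels speak of 3 batches of libraries without assigning any pool to one, so a shared number may or may not mark a batch. Correlations of same-numbered deviations from the group means were 0.074, 0.228 and 0.203, and each library correlated best with its own number, a hint from the data and not from the design.

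Members lower at an unadjusted p under 0.05 went from 1 to 4 with no filter, 5 with limma voom and 7 with the replicate block, and ranged from 0 to 4 without 1 library: 0 without double-labelled pool 2, 2 without double-labelled pool 1 and 4 without double-labelled pool 3. Higher members ranged from 0 to 1, the 1 being *Eef1akmt3* without DiO-only pool 1. The median log2 fold change of the elongation genes went from -0.20 to -0.44 with limma voom, and the cause was not tested. Without 1 library it ranged from -0.35 (without double-labelled pool 1) to -0.15 (without DiO-only pool 1), and that of the initiation genes, -0.26, from -0.37 (without double-labelled pool 3) to -0.14 (without DiO-only pool 2). The counts of lower initiation genes (31 to 36), lower elongation genes (6 to 8) and lower eIF3 genes (12 to 14) stayed within 1.5 times their values. The difference in the *Eef1a2* share, 3.15 percentage points, ranged from 2.34 to 4.51 without 1 library and was 2.67 from counts without length.

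Of 645 fold changes of 43 named members under alternatives, 612 kept their direction and 0 passed the threshold. Those that turned had small or uneven values. With limma voom they were *Eef1akmt2* (-0.0047), *Eif1a* (-0.14), *Eif2a* (-0.10), *Eif4ebp2* (-0.57) and *Eif5a2* (-0.24). With the replicate block they were *Eif2a* (-0.04) and *Eif4ebp2* (-0.28), and for *Eif5b* they were upper quartile scaling (-0.01) and no filter (-0.0010). Without 1 library the log2 fold change ranged from -0.44 to 1.45 for *Eef1akmt2*, -0.03 to 0.19 for *Eef2k*, -0.05 to 0.68 for *Eif1a*, -0.20 to 0.28 for *Eif1ad*, -0.56 to 0.49 for *Eif2a*, -0.61 to 0.05 for *Eif2s1*, -0.11 to 0.79 for *Eif2s3x*, -0.35 to 0.15 for *Eif4a3*, -0.38 to 0.03 for *Eif4e*, -1.17 to 0.69 for *Eif4ebp2*, -0.72 to 0.06 for *Eif5*, -0.40 to 0.12 for *Eif5a*, -0.59 to 0.55 for *Eif5a2* and -0.14 to 0.34 for *Eif5b*.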
